A study of Mus with 15 samples.

Results

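Cell cycle and replication genes were described as a set of 40 genes, taken as the rows of the deposited gene table that carry the members' symbols, out of 55657 gene models in the table. Of the 40 members, 13 act in DNA replication, 21 in mitosis, and 6 were kept on neither side: the G1 and S phase cyclin genes Ccnd1, Ccne1 and Ccne2, the transcription factor gene E2f1, the cyclin gene Ccna2 and the proliferation marker gene Mki67. The 3 groups were wounded skin of type I diabetic mice, called diabetic wound here, wounded skin of healthy mice (healthy wound) and skin of uninjured healthy mice, whose treatment label is sham (normal skin), with 5 libraries each, and both wound groups carry wound surgery as their treatment label. The series title names mesenchymal stem cells without nuclei as a product for wound repair, and no library of the 3 groups is labelled as having received cells. The sources used here give no strain, age, sex, way of inducing diabetes or time after wounding, and uninjured skin of diabetic mice was not analysed here. The comparisons address how wounded skin differs from uninjured skin, and diabetic from healthy wounds, in transcripts of dividing cells.

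A cell that leaves rest passes through G1, in which D-type and E-type cyclins release E2F factors, and the E2F targets include most genes of the replication machinery. Replication origins are licensed when Cdc6 and Cdt1 load the MCM helicase onto DNA, and in S phase PCNA, GINS and the enzymes of nucleotide supply take part in copying it. Genes of mitosis are switched on later, in G2, largely by FoxM1 and its partners, so that replication transcripts and mitosis transcripts mark different stretches of the same cycle. In skin, dividing cells are found among basal keratinocytes, in the hair follicle matrix and, after wounding, among keratinocytes of the wound edge, fibroblasts, endothelium and immune cells.

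RNA was selected by its poly-A tail and sequenced to between 15693964 and 17777165 counts per library. All 40 members passed the low-count filter, which left 17122 genes tested, and the lowest count of a member in a library was 23. Levels are given as CPM, counts relative to the scaled library total, or as FPKM, which also divides by gene length, where genes are compared with each other. Tests are edgeR's quasi-likelihood test with Benjamini-Hochberg adjustment over all genes tested, and a gene is said to have risen or fallen where the adjusted p was under 0.05. Nothing in the labels says that the 5 libraries of a group are 5 different mice, so a p-value speaks of the spread among these libraries, which may be technical. In bulk tissue, fewer cells of a type and less RNA per cell cannot be told apart. The basal keratinocyte marker list (Krt5, Krt14 and 6 others) summed to between 1532 and 19678 CPM in diabetic wounds, 6129 and 13871 CPM in healthy wounds and 4328 and 14379 CPM in normal skin, so epidermal RNA was present in every library.

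Per unit of length, the most abundant member over the 15 libraries was Pcna, which encodes the sliding clamp of DNA polymerases, at a mean of 40.2 FPKM. Cdc20, the activator of the anaphase-promoting complex, followed at 18.3 FPKM and Mki67 at 17.6 FPKM. The least abundant were Cdc6 at 1.16 FPKM, Cenpf, a kinetochore gene, at 2.12 FPKM and Gins2, a subunit of the GINS complex of the replicative helicase, at 2.29 FPKM. Pcna had 46.5 ± 4.72 FPKM in diabetic wounds, 39.0 ± 3.65 FPKM in healthy wounds and 35.0 ± 10.5 FPKM in normal skin (SD, n = 5 each). The replication members spanned 1.16 to 40.2 FPKM and the mitosis members 2.12 to 18.3 FPKM, so the ranges of the sides overlapped.

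**Figure D1:**
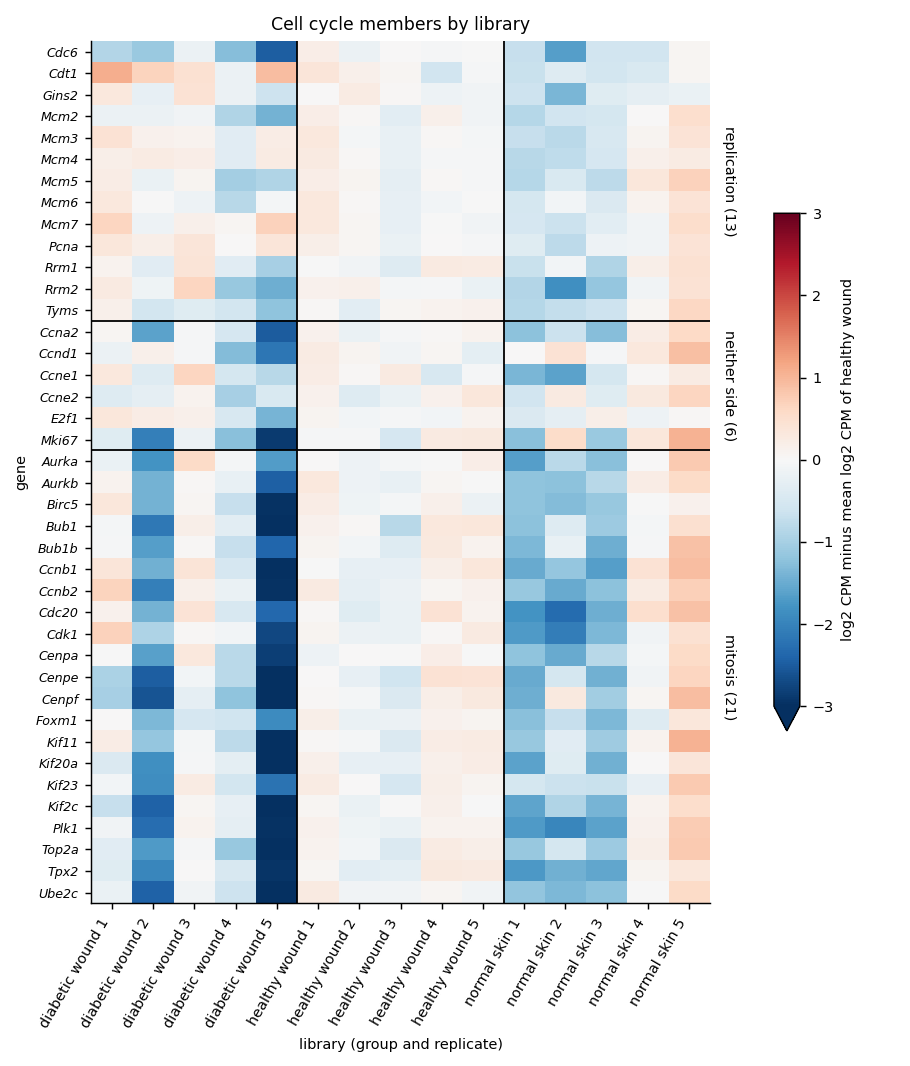
Heat map of the 40 members (rows, by side) in the 15 libraries (columns, by group and replicate), as log2 CPM minus the mean log2 CPM of healthy wound. The mitosis block is dark blue in diabetic wound replicates 2 and 5, where all 21 mitosis members lay below every healthy wound library, while the replication rows of the same libraries hold both colours.

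In diabetic wounds compared with normal skin, the replication factor gene Cdt1 rose, and it was the only 1 of the 40 members to pass the test. Over all genes, 10.7% were called higher and 8.44% lower in this comparison, so 1 of 40 higher and 0 of 40 lower lay under both background shares. In diabetic wounds compared with healthy wounds, 0 of 40 members were called by edgeR, against 5.13% of all genes called higher and 4.02% lower. In healthy wounds compared with normal skin, 0 of 40 were called, against 0.777% of all genes higher and 0.35% lower. Unadjusted p-values under 0.05 were reached by 5 members in the first of these comparisons (Ccnd1, Cdt1, Cenpf, Mki67 and Pcna), by 4 in the second (Cdc6, Cdt1, Cenpe and Cenpf) and by 0 in the third. Over all genes the same numbers were 6131, 4936 and 2793. The number of members at an unadjusted p under 0.05 moved with the settings. In diabetic against healthy wounds the 4 became 16 by voom, 7 without diabetic wound replicate 3 and 1 without diabetic wounds 4 and 5, and the 0 in healthy wounds against normal skin became 13 by voom, 6 without normal skin replicate 5, and 0 to 2 under every other alternative. In diabetic wounds against normal skin the 5 ranged from 1 (the fit of these 2 groups alone) to 7 (DESeq2).

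The other tools called more members in some comparisons. In diabetic wounds against normal skin DESeq2 called 1 member higher (Cdt1) and 2 lower (Cenpf and Mki67), against 14.7% and 13.5% of the genes it tested, and voom with sample quality weights called 1 higher (Cdt1) and 0 lower, against 12.5% and 11%. In diabetic against healthy wounds DESeq2 called 0 higher and 1 lower (Cdc6), against 9.93% and 8.67% of genes, and voom 1 higher (Cdt1) and 5 lower (Cdc6, Cenpe, Cenpf, Kif2c and Ube2c), against 12% and 11.6%. In healthy wounds against normal skin DESeq2 called 0 in either direction, against 3.84% and 2.88% of genes, and voom 1 higher (Foxm1) and 0 lower, against 5.75% and 5.08%. The library left out also mattered. Without diabetic wound replicate 3, edgeR called Cenpf lower than in normal skin, and Cdc6 and Cenpf lower than in healthy wounds. Without diabetic wound replicate 4 it called Cdt1 higher than in healthy wounds, and without normal skin replicate 2 it called Cdc6 lower than in healthy wounds. Without normal skin replicate 5 it called Cdt1, Mcm7 and Pcna higher in diabetic wounds than in normal skin.

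The median fold changes of the sides had opposite signs in diabetic wounds against normal skin, and the same sign in the other comparisons. Of the 13 replication members, 7 had a positive log2 fold change in diabetic wounds against normal skin, with a median of 0.34, and of the 21 mitosis members 2 did (Cdk1 and Birc5), with a median of -0.22. Against healthy wounds the numbers were 5 of 13 with a median of -0.11, and 0 of 21 with a median of -0.66. All 13 and all 21 were positive in healthy wounds against normal skin, with medians of 0.21 and 0.37. The median over all genes tested was -0.006, -0.016 and 0.005 in these 3 comparisons. Genes of a side share their libraries and vary together, so these counts are a description. They also rest on single libraries: without diabetic wound replicate 5, 10 of 21 mitosis members were positive against normal skin, without normal skin replicate 5 it was 11 of 21 with a median of 0.12, and without diabetic wound replicate 3 the median was -0.58. The replication median against normal skin was 0.04 without diabetic wound replicate 3, and that against healthy wounds was 0.04 without diabetic wound replicate 5. The mitosis median in healthy wounds against normal skin was 0.79 without normal skin replicate 5 and 0.22 without normal skin replicate 1, and the replication median was 0.45 and 0.12 without the same 2 libraries.

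**Figure D2:**
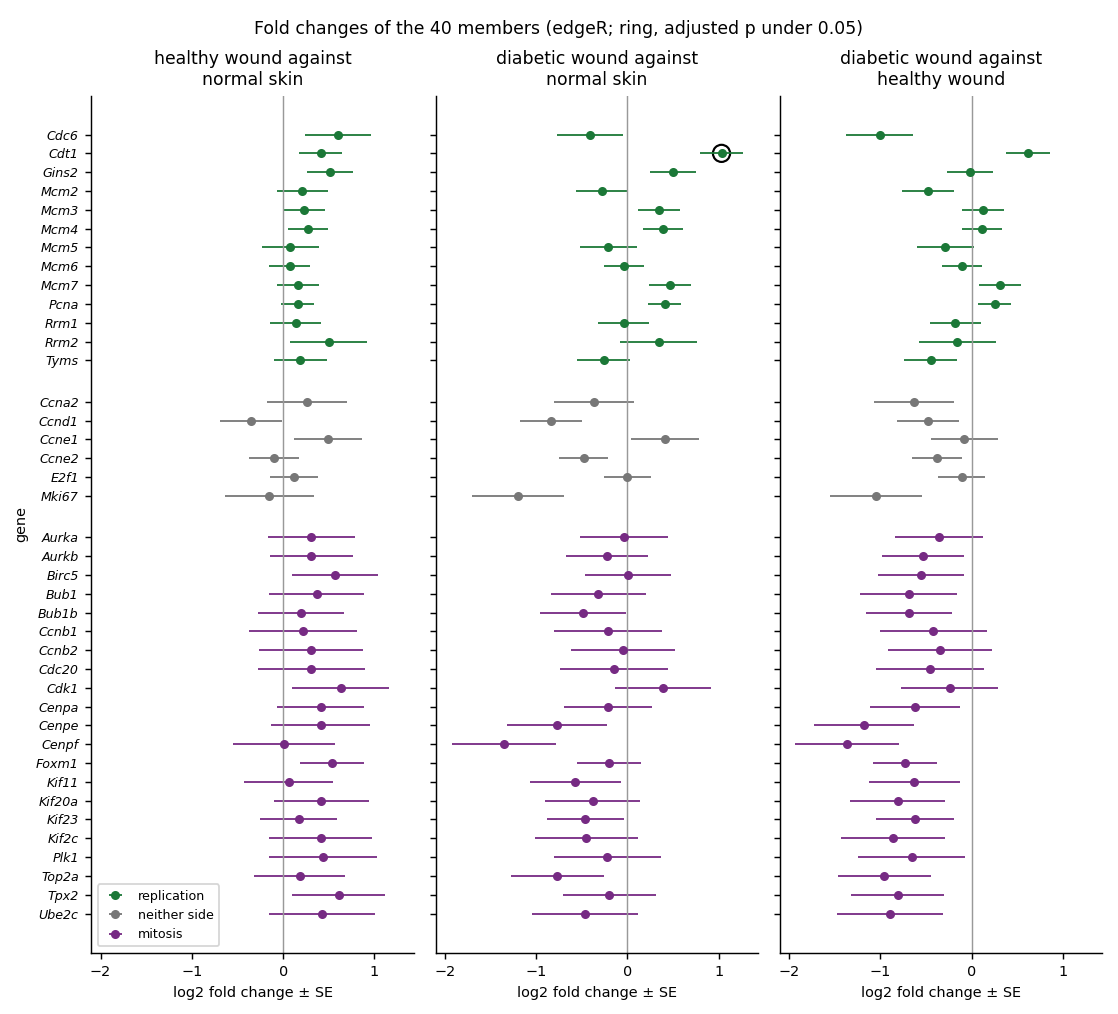
Log2 fold changes of the 40 members with their SE (x axis) in 3 comparisons from the same edgeR fit, grouped by side. The single ring marks Cdt1 in diabetic wound against normal skin at 1.03, and the mitosis points lie left of 0 for all 21 members in diabetic against healthy wounds.

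Cdt1 (ENSMUSG00000006585, chromosome 8, 122568015 to 122573554, plus strand) encodes the licensing factor that brings the MCM helicase to origins and is destroyed once S phase begins. Cdt1 had 44.2, 33.1, 28.8, 18.6 and 39.5 CPM in diabetic wound replicates 1 to 5, 26.8, 23.2, 21.9, 14.1 and 20.5 CPM in healthy wounds and 13.2, 16, 14.2, 15.2 and 21.7 CPM in normal skin. Diabetic wound libraries 1, 2, 3 and 5 lay above every normal skin library, and library 4 lay within their range. Cdt1 rose in diabetic wounds against normal skin (log2 fold change of 1.03 with an SE of 0.24, edgeR adjusted p = 0.0113), and the call held in all 25 alternatives, with log2 fold changes from 0.92 to 1.18 and adjusted p-values from 0.000617 to 0.0359. Against healthy wounds the log2 fold change was 0.62 (SE 0.24, edgeR adjusted p = 0.104), and without diabetic wound replicate 4 it was 0.77 (edgeR adjusted p = 0.0379). Healthy wounds against normal skin gave 0.41 (SE 0.24, edgeR adjusted p = 0.443). The whole of Cdt1 lies inside the model Gm20388 on the same strand, which had 0 counts in all libraries, and the sources used here do not say how reads shared by overlapping models were counted.

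Cdc6 (ENSMUSG00000017499, chromosome 11, 98907801 to 98923940, plus strand) encodes the ATPase that works with Cdt1 in licensing, and its values ran the other way. Cdc6 had 4.57, 3.91, 7.49, 3.47 and 1.51 CPM in diabetic wound replicates 1 to 5, 9.72, 7.45, 8.45, 8.21 and 8.36 CPM in healthy wounds and 5.24, 2.67, 5.61, 5.63 and 8.74 CPM in normal skin. Of the diabetic wound libraries only replicate 3 reached the range of healthy wounds, and diabetic wound replicate 5 had the lowest value of the 15 libraries. Cdc6 had a log2 fold change of -1.01 against healthy wounds (SE 0.37, edgeR adjusted p = 0.0881) and -0.41 against normal skin (SE 0.36, edgeR adjusted p = 0.434). Without diabetic wound replicate 3 the value against healthy wounds was -1.33 (edgeR adjusted p = 0.0241). For healthy wounds against normal skin Cdc6 gave 0.60 (SE 0.36, edgeR adjusted p = 0.461). The 2 licensing genes therefore had fold changes of opposite sign in both comparisons of diabetic wounds. The difference between them was not tested.

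The 6 genes of the MCM ring, Mcm2 to Mcm7, encode subunits of 1 helicase, and their fold changes in diabetic wounds had either sign. Mcm3, Mcm4 and Mcm7 had positive log2 fold changes against normal skin (0.35, 0.39 and 0.47) and Mcm2, Mcm5 and Mcm6 negative ones (-0.28, -0.21 and -0.04), with edgeR adjusted p-values from 0.153 to 0.913. Mcm2 had 39.1, 38.8, 40.5, 23.5 and 16.4 CPM in diabetic wound replicates 1 to 5, 50.4, 45.1, 35.5, 49.2 and 41.1 CPM in healthy wounds and 24.4, 29.7, 30.6, 44.5 and 62.4 CPM in normal skin. Its log2 fold change was -0.48 in diabetic against healthy wounds (SE 0.28, edgeR adjusted p = 0.267), and diabetic wound replicates 4 and 5 lay below every healthy wound library. Mcm7 had 72.5, 41.8, 51.8, 48.5 and 75.6 CPM in diabetic wound replicates 1 to 5, 57.5, 48.2, 39.6, 46.0 and 43.3 CPM in healthy wounds and 32.6, 29.7, 37.1, 43.1 and 66.9 CPM in normal skin. Mcm7 was highest of the diabetic wounds in replicate 5, the library with the lowest Mcm2. Its log2 fold change against normal skin was 0.47 (SE 0.23, edgeR adjusted p = 0.153), and 0.70 without normal skin replicate 5 (edgeR adjusted p = 0.0308). The library kit does not mark the strand, and Mcm7 shares 421 and 64 bases with Ap4m1 and Cops6 on the other strand. Mcm6 had 87.5, 70.0, 63.2, 39.4 and 67.2 CPM in diabetic wound replicates 1 to 5, 87.0, 71.6, 58.9, 66.7 and 69.6 CPM in healthy wounds and 48.7, 66.5, 51.9, 75.5 and 93.7 CPM in normal skin. Mcm6 overlapped between all 3 groups, and its log2 fold changes were -0.04 in diabetic wounds against normal skin, -0.11 against healthy wounds and 0.07 in healthy wounds against normal skin.

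Gins2 was the only member whose healthy wounds and normal skin did not overlap. Gins2 had 12.9, 8.79, 13.97, 9.24 and 6.76 CPM in diabetic wound replicates 1 to 5, 10.5, 12.3, 10.6, 9.33 and 9.64 CPM in healthy wounds and 6.81, 4.0, 8.11, 8.59 and 9.15 CPM in normal skin. Every healthy wound library lay above every normal skin library, as for 3.87% of all genes tested, against 2.89% that lay wholly below, but the gap between the groups was small and the log2 fold change of 0.51 did not pass the test (SE 0.25, edgeR adjusted p = 0.342). Diabetic wounds spread across both groups. Gins2 overlaps Gse1 on the other strand by 2758 bases. No member of the 40 separated without overlap in either comparison of diabetic wounds, where 6.09% of all genes lay wholly above normal skin and 5.26% wholly below, and 5.27% wholly above healthy wounds and 4.52% wholly below.

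Pcna was the steadiest member in the diabetic wounds. Pcna had 118, 106, 119.8, 94.2 and 119.8 CPM in diabetic wound replicates 1 to 5, 105, 97.7, 81.2, 94.0 and 90.7 CPM in healthy wounds and 72.2, 54.5, 83.7, 86.1 and 123 CPM in normal skin. The diabetic libraries lay between 94.2 and 119.8 CPM, above 4 of the 5 normal skin libraries, and normal skin replicate 5 was the highest of the 15. The log2 fold change against normal skin was 0.41 (SE 0.18, edgeR adjusted p = 0.113). Without normal skin replicate 5 it was 0.59 (edgeR adjusted p = 0.0228). Against healthy wounds it was 0.25 (SE 0.18, edgeR adjusted p = 0.36).

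The genes of nucleotide supply were more variable. Rrm2 encodes the regulated subunit of ribonucleotide reductase, which makes deoxynucleotides. Rrm2 had 54.6, 41.4, 71.7, 20.6 and 16.5 CPM in diabetic wound replicates 1 to 5, 50.1, 50.3, 43.5, 44.7 and 39.9 CPM in healthy wounds and 24.8, 12.7, 20.5, 42.4 and 61.8 CPM in normal skin. Diabetic wound libraries stood both above and below all healthy wounds, and the log2 fold changes of Rrm2 were 0.34 against normal skin (SE 0.42, edgeR adjusted p = 0.59) and -0.16 against healthy wounds (SE 0.42, edgeR adjusted p = 0.827). Rrm1, the large subunit of the same enzyme, had a mean of 78.4 ± 27.2 CPM in diabetic wounds, 88.7 ± 16.2 CPM in healthy wounds and 80.6 ± 30.3 CPM in normal skin (SD, n = 5 each). Tyms, thymidylate synthase, had 14.85 ± 4.91 CPM, 20.3 ± 2.36 CPM and 17.8 ± 8.42 CPM in diabetic wounds, healthy wounds and normal skin (SD, n = 5 each). The other MCM members, Mcm3, Mcm4 and Mcm5, had means of 50.5 ± 9.53, 51.3 ± 8.03 and 41.9 ± 15.4 CPM in diabetic wounds, 46.4 ± 6.73, 47.5 ± 5.84 and 51.1 ± 5.89 CPM in healthy wounds, and 39.6 ± 15.0, 39.2 ± 13.98 and 48.3 ± 24.0 CPM in normal skin. For these 5 genes the difference between the means of any 2 groups was no larger than the larger of the 2 SDs, except for Tyms in diabetic against healthy wounds, where 0 of the 13 replication members passed the test.

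Among the regulators of mitotic entry, Foxm1 (ENSMUSG00000001517, chromosome 6, 128362967 to 128376146, plus strand) encodes the transcription factor that drives G2 and mitosis genes. Foxm1 had 36.1, 14.2, 25.3, 23.8 and 9.84 CPM in diabetic wound replicates 1 to 5, 40.7, 31.7, 31.9, 39.4 and 38.0 CPM in healthy wounds and 15.1, 22.5, 14.2, 27.5 and 45.9 CPM in normal skin. Diabetic wound replicate 1 was the only library of its group within the healthy range, and the other 4 lay below it. The log2 fold change was -0.73 in diabetic against healthy wounds (SE 0.35, edgeR adjusted p = 0.179) and 0.54 in healthy wounds against normal skin (SE 0.35, edgeR adjusted p = 0.499). With voom and sample quality weights, healthy wounds against normal skin gave 0.88 (adjusted p = 0.04).

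The cyclin B partners of the kinase that starts mitosis varied widely in the diabetic group. Ccnb1 had 52.8, 15.3, 54.2, 29.3 and 4.47 CPM in diabetic wound replicates 1 to 5, 40.9, 34.8, 35.0, 46.4 and 52.0 CPM in healthy wounds and 14.5, 18.4, 13.2, 55.4 and 78.5 CPM in normal skin. For Ccnb1, cyclin B1, diabetic wound replicates 1 and 3 lay above every healthy wound library and replicates 2, 4 and 5 below. Cdk1 had 62.4, 20.5, 39.9, 36.7 and 5.85 CPM in diabetic wound replicates 1 to 5, 40.8, 34.4, 33.7, 39.6 and 46.3 CPM in healthy wounds and 11.99, 9.20, 15.2, 35.9 and 53.5 CPM in normal skin. Cdk1, the kinase subunit, had the smallest difference of the mitosis members between diabetic and healthy wounds, with a log2 fold change of -0.24 (SE 0.53, edgeR adjusted p = 0.793), and the largest in healthy wounds against normal skin, at 0.63 (SE 0.53, edgeR adjusted p = 0.635). Plk1 had 26.5, 5.83, 30.5, 23.7 and 3.62 CPM in diabetic wound replicates 1 to 5, 30.9, 25.97, 24.5, 30.4 and 30.5 CPM in healthy wounds and 8.73, 7.33, 9.24, 31.0 and 48.4 CPM in normal skin. Plk1, polo-like kinase 1, which acts at entry into mitosis and at the spindle, was under 10 CPM in normal skin replicates 1, 2 and 3 and over 30 CPM in replicates 4 and 5. Its log2 fold change was -0.66 in diabetic against healthy wounds (SE 0.59, edgeR adjusted p = 0.481).

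Cenpf and Cenpe, which encode kinetochore proteins that help bind chromosomes to the spindle, had the most negative fold changes of the 40 members in diabetic against healthy wounds. Cenpf had 20.3, 6.73, 33.6, 17.6 and 1.99 CPM in diabetic wound replicates 1 to 5, 41.6, 39.0, 30.0, 46.1 and 49.8 CPM in healthy wounds and 14.7, 50.2, 19.6, 42.7 and 77.3 CPM in normal skin. Of the diabetic wounds only replicate 3 reached the healthy wound range, and replicates 2 and 5 also lay below every normal skin library. The log2 fold change of Cenpf (ENSMUSG00000026605, chromosome 1, 189640606 to 189688086, minus strand) was -1.37 against healthy wounds (SE 0.57, edgeR adjusted p = 0.13) and -1.35 against normal skin (SE 0.57, edgeR adjusted p = 0.104). Without diabetic wound replicate 3 the values were -1.83 and -1.81 (edgeR adjusted p = 0.0467 and 0.0407). Cenpe had 17.3, 6.03, 31.6, 19.1 and 2.65 CPM in diabetic wound replicates 1 to 5, 33.7, 28.2, 22.1, 45.2 and 44.8 CPM in healthy wounds and 11.8, 23.1, 12.3, 31.2 and 52.2 CPM in normal skin. For Cenpe the log2 fold change was -1.18 against healthy wounds (SE 0.55, edgeR adjusted p = 0.168) and -0.77 against normal skin (SE 0.55, edgeR adjusted p = 0.328), and again replicate 3 alone was within the healthy range.

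Top2a encodes the topoisomerase that untangles chromosomes before they part. Top2a had 109, 41.9, 132, 62.4 and 10.5 CPM in diabetic wound replicates 1 to 5, 146, 129, 102, 161 and 154 CPM in healthy wounds and 62.3, 94.1, 64.5, 154 and 234 CPM in normal skin. Diabetic wound replicates 1 and 3 were within the healthy wound range and replicates 2, 4 and 5 below it. Its log2 fold change was -0.96 against healthy wounds (SE 0.51, edgeR adjusted p = 0.224) and -0.77 against normal skin (SE 0.51, edgeR adjusted p = 0.289). Tpx2 had 37.8, 12.5, 49.3, 35.0 and 6.34 CPM in diabetic wound replicates 1 to 5, 50.9, 38.9, 39.6, 59.2 and 58.3 CPM in healthy wounds and 14.7, 17.9, 16.4, 51.6 and 61.0 CPM in normal skin. Tpx2, which activates Aurora A at the spindle, showed the same split, except that replicate 1 lay just under the lowest healthy library. Its log2 fold change was -0.81 in diabetic against healthy wounds (SE 0.51, edgeR adjusted p = 0.304) and 0.61 in healthy wounds against normal skin (SE 0.51, edgeR adjusted p = 0.631). Birc5 had 28.7, 8.53, 23.7, 14.1 and 2.90 CPM in diabetic wound replicates 1 to 5, 26.4, 20.8, 22.0, 25.2 and 20.2 CPM in healthy wounds and 9.84, 9.27, 10.4, 22.7 and 24.9 CPM in normal skin. Birc5, survivin, of the chromosomal passenger complex, had a log2 fold change of -0.56 against healthy wounds (SE 0.47, edgeR adjusted p = 0.448) and 0.01 against normal skin (SE 0.47, edgeR adjusted p = 0.986).

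The remaining 12 mitosis members were low in the same libraries, diabetic wound replicates 2 and 5. They are the Aurora kinase genes Aurka and Aurkb, the spindle checkpoint genes Bub1 and Bub1b, the anaphase-promoting complex partners Cdc20 and Ube2c, the cyclin gene Ccnb2, the centromeric histone gene Cenpa, and the kinesin motor genes Kif11, Kif20a, Kif23 and Kif2c. Over all 21 mitosis members the log2 fold changes in diabetic against healthy wounds ran from -1.37 for Cenpf to -0.24 for Cdk1, with SEs of 0.35 to 0.59 and edgeR adjusted p-values of 0.13 to 0.793. Against normal skin they ran from -1.35 to 0.39 (edgeR adjusted p from 0.104 to 0.986), and in healthy wounds against normal skin from 0.01 to 0.63 (edgeR adjusted p from 0.499 to 0.995). The replication members had smaller SEs, from 0.18 to 0.42, in the same fit.

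**Figure D3:**
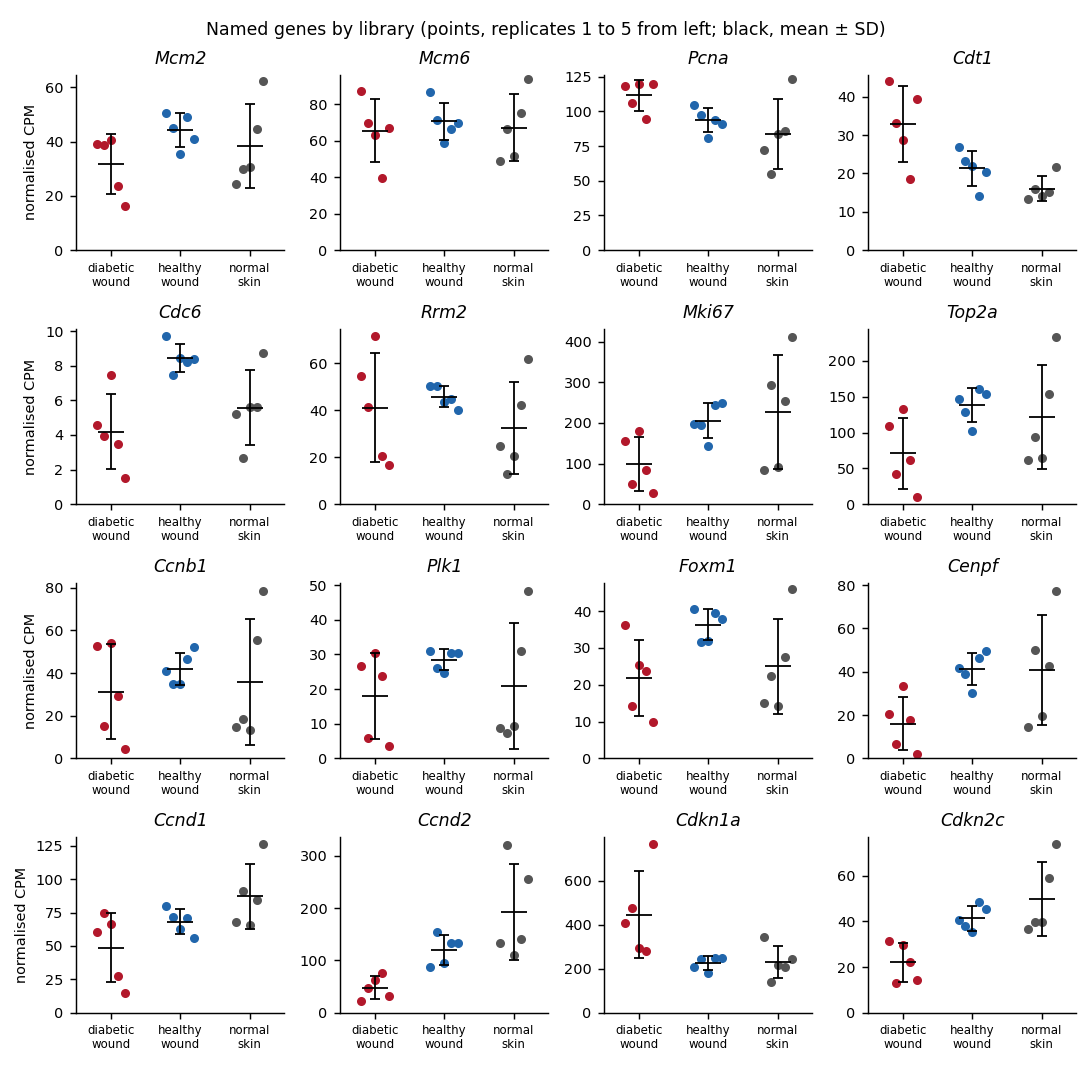
Normalised CPM (y axis, linear from 0) of 16 named genes in each library, by group, with the mean and SD in black. Ccnb1, Plk1 and Top2a reach from near 0 to the healthy wound range within the diabetic group, while Pcna stays between 94.2 and 119.8 CPM there.

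Of the 6 members on neither side, Ccna2 and Mki67 followed the mitosis members among the diabetic wounds, with their lowest values in replicates 2 and 5. Mki67 (ENSMUSG00000031004, chromosome 7, 135689784 to 135716361, minus strand) encodes the chromosome-coating protein Ki-67, present in cycling cells and absent from resting ones. Mki67 had 156, 48.8, 179, 84.0 and 27.5 CPM in diabetic wound replicates 1 to 5, 196, 196, 142, 244 and 249 CPM in healthy wounds and 84.2, 294, 92.8, 254 and 412 CPM in normal skin. Replicates 1 and 3 of the diabetic wounds were within the healthy wound range and replicates 2, 4 and 5 were below it. Its log2 fold change was -1.05 against healthy wounds (SE 0.50, edgeR adjusted p = 0.176) and -1.20 against normal skin (SE 0.50, edgeR adjusted p = 0.0998). DESeq2 gave -1.21 against normal skin (adjusted p = 0.0462). In healthy wounds against normal skin Mki67 had -0.15 (SE 0.49, edgeR adjusted p = 0.939), where all 21 mitosis members were positive. Normal skin replicates 2, 4 and 5 lay above every healthy wound for Mki67. Ccna2 had 49.3, 15.7, 46.2, 33.5 and 8.33 CPM in diabetic wound replicates 1 to 5, 51.7, 40.9, 46.0, 48.2 and 50.6 CPM in healthy wounds and 20.02, 30.5, 19.7, 55.4 and 72.2 CPM in normal skin. For Ccna2, cyclin A2, which works in S phase and G2, the log2 fold change was -0.63 in diabetic against healthy wounds (SE 0.44, edgeR adjusted p = 0.357).

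Ccnd1 (cyclin D1, which responds to growth signals in G1) did not follow the mitosis members among the diabetic wounds. Ccnd1 had 60.1, 74.8, 66.4, 27.5 and 15.0 CPM in diabetic wound replicates 1 to 5, 79.8, 72.0, 62.9, 70.8 and 55.6 CPM in healthy wounds and 68.0, 91.5, 65.5, 84.1 and 126 CPM in normal skin. Diabetic wound replicates 4 and 5 were lower than every other library, whereas replicate 2, low in the mitosis members, had the highest Ccnd1 of its group. The mean log2 CPM of the replication members was also lowest of the group in replicates 4 and 5, at 4.67 and 4.7. In diabetic wounds the log2 fold change of Ccnd1 was -0.84 against normal skin (SE 0.34, edgeR adjusted p = 0.0948) and -0.48 against healthy wounds (SE 0.34, edgeR adjusted p = 0.359). In healthy wounds against normal skin it was -0.35 (SE 0.34, edgeR adjusted p = 0.699), where all 13 replication members were positive. Ccne1 had 11.2, 6.86, 13.97, 6.20 and 5.01 CPM in diabetic wound replicates 1 to 5, 10.4, 9.23, 10.8, 6.41 and 8.79 CPM in healthy wounds and 3.49, 2.93, 6.18, 9.14 and 10.7 CPM in normal skin. E2f1 had 27.6, 25.3, 24.3, 15.7 and 8.33 CPM in diabetic wound replicates 1 to 5, 23.3, 20.5, 21.4, 20.7 and 23.7 CPM in healthy wounds and 16.3, 18.1, 24.6, 19.7 and 22.4 CPM in normal skin. The group means of E2f1, the factor that switches on replication genes, differed by less than 2 CPM, and the log2 fold change in diabetic wounds was 0.00 against normal skin (SE 0.26, edgeR adjusted p = 0.997). Ccne1, cyclin E1, gave 0.41 against normal skin (SE 0.37, edgeR adjusted p = 0.446) and -0.08 against healthy wounds (SE 0.37, edgeR adjusted p = 0.91). Ccne2 had 7.34, 7.89, 10.4, 4.80 and 6.94 CPM in diabetic wound replicates 1 to 5, 10.5, 7.34, 8.28, 10.4 and 12.1 CPM in healthy wounds and 6.46, 11.5, 7.48, 11.8 and 14.9 CPM in normal skin. Ccne2, cyclin E2, gave -0.48 (SE 0.27, edgeR adjusted p = 0.212) and -0.38 (SE 0.27, edgeR adjusted p = 0.361), and it overlaps Ints8 on the other strand by 5622 bases.

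Setting the sides against each other within a library showed how far they parted. The mean log2 CPM (prior count of 2) over the replication members was 5.44, 5.08, 5.36, 4.67 and 4.70 in diabetic wound replicates 1 to 5, 5.4, 5.22, 5.05, 5.18 and 5.18 in healthy wounds and 4.52, 4.43, 4.64, 5.15 and 5.56 in normal skin. The same mean over the mitosis members was 4.90, 3.20, 5.06, 4.47 and 2.01 in diabetic wound replicates 1 to 5, 5.10, 4.84, 4.72, 5.17 and 5.13 in healthy wounds and 3.63, 4.0, 3.75, 5.04 and 5.63 in normal skin. Replication levels thus stayed within 0.77 log2 units among diabetic wounds, and mitosis levels covered 3.05. Among healthy wounds the ranges were 0.35 and 0.46, and in normal skin 1.13 and 2.0.

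The difference, replication minus mitosis, was 0.54, 1.87, 0.30, 0.20 and 2.68 in diabetic wound replicates 1 to 5, 0.30, 0.37, 0.33, 0.01 and 0.04 in healthy wounds and 0.89, 0.43, 0.89, 0.11 and -0.07 in normal skin. The group means were 1.12 ± 1.10 in diabetic wounds, 0.21 ± 0.17 in healthy wounds and 0.45 ± 0.44 in normal skin (SD, n = 5 each). Diabetic wound replicates 2 and 5 had the largest differences of the 15 libraries, and the other 3 diabetic wounds lay within the range of normal skin. The diabetic mean was 0.73 without replicate 5, and the means were 0.67 in diabetic wounds, -0.22 in healthy wounds and 0.01 in normal skin with E2f1, Ccne1 and Ccne2 counted as replication and Ccna2 and Mki67 as mitosis. No p is given for this difference, since it is a score over the members. As summed CPM, the mitosis members had 0.997, 0.402, 1.15, 1.14 and 0.18 times the level of the replication members in diabetic wound replicates 1 to 5, 1.19, 1.14, 1.22, 1.44 and 1.44 times in healthy wounds and 0.793, 1.06, 0.794, 1.33 and 1.52 times in normal skin.

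**Figure D4:**
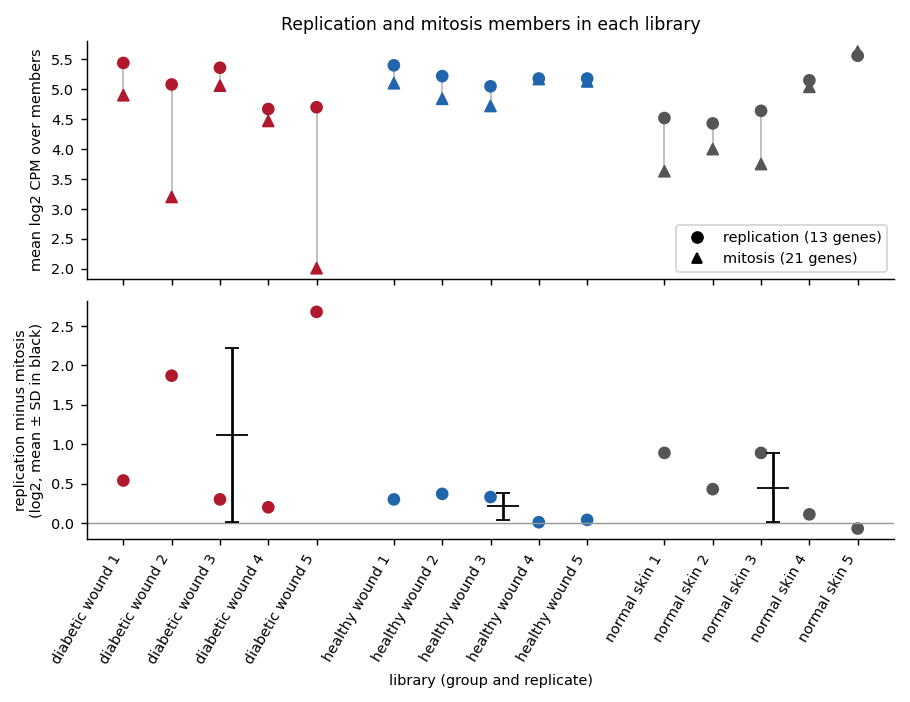
Upper panel, mean log2 CPM of the 13 replication members (circles) and of the 21 mitosis members (triangles) in each library; lower panel, replication minus mitosis, with the group mean and SD in black. The triangles of diabetic wound replicates 2 and 5 lie at 3.20 and 2.01, below every other library, while their circles at 5.08 and 4.70 lie within the range of normal skin.

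Relative to the mean of healthy wounds, all 21 mitosis members lay below every healthy wound library in diabetic wound replicates 2 and 5, with median log2 differences of -1.77 and -2.93. In the same libraries 3 and 7 of the 13 replication members lay below every healthy wound library, and 2 (Cdt1 and Pcna) and 3 (Cdt1, Mcm7 and Pcna) lay above every one. Diabetic wound replicate 4 differed: 9 replication members and 16 mitosis members were below all healthy wounds, with median differences of -0.35 and -0.49. In diabetic wound replicate 1, 9 replication members lay above and 1 below every healthy wound, and 4 mitosis members lay above and 7 below. In replicate 3, 5 replication members lay above and 1 below, and 4 mitosis members lay above and 1 below, with the other 16 within the range. Replicate 5 was the lowest diabetic library for 20 of the 21 mitosis members, the exception being Aurka, which was lowest in replicate 2.

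Normal skin was not uniform either. Replicate 5 was the highest normal skin library for 39 of the 40 members, the exception being E2f1. In mean log2 CPM of the mitosis members, normal skin replicates 4 and 5 stood at 5.04 and 5.63, within or above the healthy wounds, and replicates 1, 2 and 3 at 3.63 to 4.0, below all of them. Healthy wounds varied least. The SD of log2 CPM over the 5 libraries was smallest in healthy wounds for all 21 mitosis members and for 12 of the 13 replication members. For a mitosis member the median SD was 1.31 in diabetic wounds, 0.23 in healthy wounds and 0.91 in normal skin, and for a replication member 0.48, 0.18 and 0.52. The highest library of a group exceeded the lowest by a median of 9.95-fold for mitosis members in diabetic wounds, 1.47-fold in healthy wounds and 4.32-fold in normal skin. The widest spread was that of Ube2c, a ubiquitin-conjugating enzyme of mitotic exit, at 18.7-fold among diabetic wounds.

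Genes of the same pathways outside the 40 were compared in the same way. Among 42 other replication genes, such as polymerase, clamp loader and origin recognition genes, edgeR called 2 higher (Prim2 and Dbf4) and 0 lower in diabetic wounds against normal skin, where it called 10.7% of all genes higher and 8.44% lower. It called 0 of the 42 in the other 2 comparisons (all genes 5.13% higher and 4.02% lower in diabetic against healthy wounds, 0.777% and 0.35% in healthy wounds against normal skin), where 2 (diabetic against healthy wounds) and 3 (healthy wounds against normal skin) had an unadjusted p under 0.05. Among 50 other mitosis genes, 0 were called in any of the 3 comparisons, with 3, 4 and 2 at an unadjusted p under 0.05 in diabetic wounds against normal skin, diabetic against healthy wounds and healthy wounds against normal skin. DESeq2 called 2 other mitosis genes lower in diabetic wounds (Aspm and Knl1) against each of the other groups, and voom called 1 higher against normal skin (Gtse1), 8 lower against healthy wounds, among them Aspm and Knl1, and 1 higher in healthy wounds against normal skin (Gtse1). Of the other replication genes, DESeq2 and voom called 5 and 6 higher and 0 lower in diabetic wounds against normal skin. Against healthy wounds they called 0 and 2 higher and 0 lower, and in healthy wounds against normal skin 1 each higher (Fen1 and Dbf4). Their shares of all genes called higher were 14.7% and 12.5%, 9.93% and 12%, and 3.84% and 5.75% in these 3 comparisons. The shares called lower were 13.5% and 11%, 8.67% and 11.6%, and 2.88% and 5.08%. These shares stand beside both lists. The median log2 fold changes of the other mitosis genes were -0.27, -0.56 and 0.27 in this order, against 0.06, -0.12 and 0.13 for the other replication genes. The mean log2 CPM of other replication genes minus that of other mitosis genes was -0.02, 0.97, -0.23, -0.21 and 1.32 in diabetic wound replicates 1 to 5, -0.21, -0.22, -0.15, -0.31 and -0.40 in healthy wounds and 0.08, -0.24, 0.25, -0.28 and -0.40 in normal skin. Diabetic wound replicates 2 and 5 again had the largest values. Aspm, a spindle pole gene, had a log2 fold change of -1.46 against healthy wounds (SE 0.53, edgeR adjusted p = 0.0897), and Knl1, a scaffold of the kinetochore, one of -1.38 (SE 0.52, edgeR adjusted p = 0.0993). Gtse1, expressed in G2 and mitosis, had 1.12 in healthy wounds against normal skin (SE 0.40, edgeR adjusted p = 0.174). Pttg1, securin, which guards the cohesion of sister chromatids, was among the 6 of 50 with a positive value, 0.41 in diabetic against healthy wounds (SE 0.17, edgeR adjusted p = 0.134), and its diabetic libraries lay above every healthy wound library. Of the other replication genes named by the smallest p, Orc6, of the origin recognition complex, had 0.76 (SE 0.32, edgeR adjusted p = 0.132) and Pold1, the catalytic subunit of polymerase delta, -0.48 (SE 0.20, edgeR adjusted p = 0.126) in diabetic against healthy wounds. In healthy wounds against normal skin, Pold2, of the same polymerase, had -0.37 (SE 0.17, edgeR adjusted p = 0.278). Fen1, a flap endonuclease, stayed under 3 CPM in every library, so few counts stand behind its 1.43 (SE 0.59, edgeR adjusted p = 0.232).

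The call of Prim2, a primase subunit, and that of Dbf4, which activates the Cdc7 kinase at origins, were not steady. Prim2 had a log2 fold change of 0.64 (SE 0.20, edgeR adjusted p = 0.037) and lost its call in 12 of 25 alternatives, among them leaving out diabetic wound replicate 1, 2, 3 or 5, healthy wound replicate 1 or 3, or normal skin replicate 1 or 3 (edgeR adjusted p up to 0.072 without 1 library). Dbf4 had 0.95 (SE 0.32, edgeR adjusted p = 0.0465) and lost its call in 18 of 25, and without 1 library only the leaving out of diabetic wound replicate 4 or normal skin replicate 4 or 5 kept it (edgeR adjusted p up to 0.0931).

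Among the regulators of G1 and of entry into S phase, cyclin D2 fell in diabetic wounds. Of 19 such genes, edgeR called 2 higher (E2f7 and Lin54) and 3 lower (Ccnd2, E2f2 and Rb1) in diabetic wounds against normal skin, 1 lower (Ccnd2) against healthy wounds, and 0 in healthy wounds against normal skin, where 1 had an unadjusted p under 0.05 and DESeq2 and voom also called 0. The shares of all genes called higher and lower were 10.7% and 8.44% in the first comparison and 5.13% and 4.02% in the second. Ccnd2 (ENSMUSG00000000184, chromosome 6, 127125162 to 127152193, minus strand) encodes cyclin D2, which with its kinase opens the way into S phase. Ccnd2 had 22.8, 46.3, 63.2, 74.9 and 31.1 CPM in diabetic wound replicates 1 to 5, 86.5, 154, 94.2, 134 and 133 CPM in healthy wounds and 133, 322, 109, 140.1 and 255 CPM in normal skin. All 5 diabetic wounds lay below every healthy wound and every normal skin library. Ccnd2 fell in diabetic wounds against normal skin (log2 fold change of -2.01 with an SE of 0.36, edgeR adjusted p = 0.00347) and against healthy wounds (log2 fold change of -1.34 with an SE of 0.35, edgeR adjusted p = 0.0332). The first call held in all 25 alternatives (edgeR adjusted p up to 0.0188). The second was lost without diabetic wound replicate 1, 2 or 5 or without healthy wound replicate 1, 2, 4 or 5, with log2 fold changes of -1.56 to -1.15 and edgeR adjusted p up to 0.0824. It was also lost with the replicate number as a block (edgeR adjusted p = 0.0554) and without diabetic wounds 4 and 5 (0.0605).

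Lin54, a DNA-binding subunit of the DREAM complex that holds cell cycle genes silent in resting cells, rose against normal skin (log2 fold change of 0.89 with an SE of 0.22, edgeR adjusted p = 0.0143), and missed the threshold in the fit of 2 groups (edgeR adjusted p = 0.0557). Lin54 had 49.99, 41.0, 29.3, 24.99 and 53.4 CPM in diabetic wound replicates 1 to 5, 22.7, 25.1, 23.9, 24.7 and 24.5 CPM in healthy wounds and 19.7, 15.47, 19.1, 24.4 and 28.3 CPM in normal skin. Diabetic wound replicates 1, 2, 3 and 5 lay above every library of the other groups, and replicate 4 lay within both ranges. Against healthy wounds Lin54 had a log2 fold change of 0.72 (SE 0.22, edgeR adjusted p = 0.0525). It passed the threshold in 8 alternatives: by DESeq2 (adjusted p = 0.0152), by voom (adjusted p = 0.00758), with RLE scaling or a stricter filter, and without diabetic wound replicate 3 or 4 or normal skin replicate 2 or 5. E2f7, a repressor of the E2F family, rose against normal skin (log2 fold change of 1.24 with an SE of 0.35, edgeR adjusted p = 0.026), and its call was lost without diabetic wound replicate 2 or normal skin replicate 1 (0.81 without diabetic wound replicate 2, edgeR adjusted p up to 0.0774), in the fit of 2 groups (0.0715) and with the block (0.0676). E2f7 had 18.5, 46.8, 23.5, 8.82 and 17.9 CPM in diabetic wound replicates 1 to 5, 17.6, 10.2, 16.7, 14.7 and 18.3 CPM in healthy wounds and 6.98, 9.27, 8.39, 10.03 and 14.2 CPM in normal skin. Diabetic wound replicate 2 was the highest of the 15 libraries. E2f7 and E2f2 were chosen after their values were seen. E2f2, an activator of the E2F family, fell (log2 fold change of -1.20 with an SE of 0.36, edgeR adjusted p = 0.0325), and lost its call without diabetic wound replicate 2, 4 or 5 or normal skin replicate 2, 4 or 5 (edgeR adjusted p up to 0.0818). It also lost it in the fit of 2 groups (edgeR adjusted p = 0.0865), with the replicate number as a block (0.0981) and without diabetic wounds 4 and 5 (-0.88, edgeR adjusted p = 0.149), and voom gave -0.65 (adjusted p = 0.234). Rb1, the retinoblastoma protein, which restrains E2F factors, fell (log2 fold change of -0.66 with an SE of 0.19, edgeR adjusted p = 0.0265), lost its call without diabetic wound replicate 5 or normal skin replicate 1 (edgeR adjusted p up to 0.0708), and overlaps Rcbtb2 and Lpar6 on the other strand. Its call was also lost in the fit of 2 groups (edgeR adjusted p = 0.0718), without diabetic wounds 4 and 5 (0.127) and by voom (0.0616).

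Of 8 genes of cyclin-dependent kinase inhibitors, edgeR called 2 higher (Cdkn1a and Cdkn2d) and 1 lower (Cdkn2c) in diabetic wounds against normal skin, and 1 higher (Cdkn1a) and 1 lower (Cdkn2c) against healthy wounds. All genes had the same shares as above, 10.7% higher and 8.44% lower against normal skin and 5.13% and 4.02% against healthy wounds. None of the tools called any in healthy wounds against normal skin (0 by edgeR, DESeq2 and voom), and 0 had an unadjusted p under 0.05. Cdkn1a (ENSMUSG00000023067, chromosome 17, 29090976 to 29100727, plus strand) encodes p21, which blocks cyclin-dependent kinases and binds PCNA. Cdkn1a had 409, 474, 292, 281 and 767 CPM in diabetic wound replicates 1 to 5, 208, 245, 178, 249.7 and 250.2 CPM in healthy wounds and 342, 141, 214, 206 and 245 CPM in normal skin. Each diabetic wound lay above every healthy wound, and replicate 5, the lowest in the mitosis members, had the highest Cdkn1a of the 15 libraries. Cdkn1a rose against healthy wounds (log2 fold change of 0.98 with an SE of 0.28, edgeR adjusted p = 0.0421) and against normal skin (log2 fold change of 0.95 with an SE of 0.28, edgeR adjusted p = 0.0289). Without diabetic wound replicate 5 the values were 0.69 and 0.67, and neither passed the test. The call against healthy wounds was also lost without diabetic wound replicate 1 or 2, any 1 healthy wound library, or normal skin replicate 3 or 4, and the call against normal skin without diabetic wound replicate 2 or normal skin replicate 2, 3 or 4 (edgeR adjusted p up to 0.109 and 0.0787). Both calls were lost in the fits of 2 groups (edgeR adjusted p = 0.0634 and 0.0826) and without diabetic wounds 4 and 5 (0.0872 and 0.0619), and that against healthy wounds also without a low-count filter (0.06) and with the replicate number as a block (0.0766).

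Cdkn2c encodes p18, an inhibitor of the kinases that partner D-type cyclins. Cdkn2c had 31.6, 12.8, 29.6, 22.1 and 14.5 CPM in diabetic wound replicates 1 to 5, 40.5, 37.9, 35.2, 48.6 and 45.3 CPM in healthy wounds and 36.7, 39.9, 39.6, 59.2 and 74.0 CPM in normal skin. The diabetic wounds lay below every library of the other groups. Cdkn2c fell against normal skin (log2 fold change of -1.17 with an SE of 0.27, edgeR adjusted p = 0.0105) and against healthy wounds (log2 fold change of -0.91 with an SE of 0.27, edgeR adjusted p = 0.0466). The call against normal skin was kept without any 1 library, and without diabetic wounds 4 and 5 the adjusted p was 0.0509 by edgeR. The call against healthy wounds was lost without diabetic wound replicate 2, 4 or 5, any 1 healthy wound library, or normal skin replicate 3 or 4, with log2 fold changes of -1.07 to -0.76 and edgeR adjusted p up to 0.11. It was also lost without a low-count filter (edgeR adjusted p = 0.0597), in the fit of 2 groups (0.0554), with the replicate number as a block (0.0832) and without diabetic wounds 4 and 5 (0.162). Cdkn2d, which encodes the related inhibitor p19, rose against normal skin (log2 fold change of 0.96 with an SE of 0.23, edgeR adjusted p = 0.0124), and that call held in all 25 alternatives. Cdkn2d had 37.3, 39.3, 31.5, 26.9 and 31.2 CPM in diabetic wound replicates 1 to 5, 20.6, 15.6, 31.2, 23.1 and 22.6 CPM in healthy wounds and 16.2, 9.47, 20.5, 19.5 and 19.6 CPM in normal skin. Its diabetic wounds lay above every normal skin library. Cdkn2a, whose locus encodes p16 and p19ARF, had a log2 fold change of -1.69 against healthy wounds (SE 0.76, edgeR adjusted p = 0.156). Few counts stand behind it, with 0 to 0.773 CPM in diabetic wounds and 0.787 to 1.71 CPM in healthy wounds.

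Tissue content differed between the libraries, and marker levels did not always move with the members. The mean log2 CPM of 6 skeletal muscle markers was 9.58, 10.17, 7.42, 10.55 and 10.73 in diabetic wound replicates 1 to 5, 9.24, 9.37, 9.82, 7.24 and 7.23 in healthy wounds and 11.20, 11, 10.87, 9.86 and 8.09 in normal skin. In each group the library with the highest mitosis level had the lowest or next to lowest muscle level, and diabetic wound replicate 5, the lowest in mitosis, had the highest muscle level of its group. This order did not hold throughout. Diabetic wound replicate 4 had a higher muscle level than replicate 2 (10.55 against 10.17) and also a higher mitosis level (4.47 against 3.2). EdgeR called 0 of the 6 muscle markers in any comparison, with 0, 2 and 5 at an unadjusted p under 0.05 in diabetic wounds against normal skin, diabetic against healthy wounds and healthy wounds against normal skin. DESeq2 called 1 (Myh4, higher in diabetic than in healthy wounds) and 1 (Ttn, lower in healthy wounds than in normal skin), and voom 0. DESeq2 called 9.93% and 2.88% of all genes in those directions. The mean over 8 fibroblast markers was 9.63, 8.42, 9.28, 9.45 and 6.66 in diabetic wound replicates 1 to 5, 10.61, 9.82, 10.52, 10.55 and 11.11 in healthy wounds and 10.16, 10.26, 10.32, 10.18 and 9.74 in normal skin. Diabetic wound replicates 2 and 5 were the lowest of the 15 libraries. Normal skin replicate 5, the highest of the 15 in mitosis at 5.63, had the lowest fibroblast level of its group. EdgeR called 2 of 8 lower against normal skin and 4 of 8 lower against healthy wounds in the diabetic group, DESeq2 3 and 6, and voom 4 and 6. Over all genes the shares called lower were 8.44% and 4.02% by edgeR, 13.5% and 8.67% by DESeq2 and 11% and 11.6% by voom.

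Markers of the hair follicle matrix, a tissue of rapid division, summed over 17 genes to between 6.32 and 22.5 CPM in diabetic wounds, 16.6 and 11778 CPM in healthy wounds and 13.7 and 6645 CPM in normal skin. Krt25, Krt31, Krt34, Krt35, Krt72 and Krt73 were at 0 in all diabetic wounds, and 10 of the 17 genes were called lower there in each comparison by edgeR, 14 by DESeq2 and 0 by voom. Healthy wound replicates 1 and 3 had summed hair marker levels of 32.0 and 16.6 CPM, near the diabetic range, with mitosis levels of 5.10 and 4.72. Healthy wound replicate 2 had 11778 CPM with a mitosis level of 4.84. Normal skin replicates 1 and 2 had 13.7 and 49.7 CPM with mitosis levels of 3.63 and 4.0, and replicate 5 had 6645 CPM with 5.63. The mean over 6 macrophage markers was 8.64, 7.75, 9.31, 8.95 and 6.20 in diabetic wound replicates 1 to 5, 8.92, 8.6, 8.75, 8.27 and 8.19 in healthy wounds and 8.37, 7.41, 8.85, 7.83 and 6.57 in normal skin. That over 8 basal keratinocyte markers was lowest in diabetic wound replicate 4 at 6.0 and replicate 5 at 7.77, against 9.02 to 9.43 in replicates 1, 2 and 3. The 7 granulocyte precursor markers summed to between 4.06 and 333 CPM in diabetic wounds, of which the highest was in replicate 5, 3.25 and 4.56 CPM in healthy wounds and 3.08 and 9.497 CPM in normal skin. In replicate 5, 2 of the 7 were at 0 and their mean log2 CPM was 1.39, so the sum rests on few genes. Only 3 of the 7 passed the filter, and in diabetic wounds edgeR called only Ngp higher, against both other groups, while DESeq2 called 0. In diabetic wounds against normal skin and against healthy wounds, edgeR called 4 and 3 of 6 T cell markers lower, DESeq2 5 and 4, and voom 3 and 2. Of 5 adipocyte markers edgeR called 2 and 2 lower, DESeq2 2 and 2, and voom 4 and 3, and of 4 melanocyte markers edgeR called 3 and 0 lower, DESeq2 3 and 3, and voom 1 and 0. Of 6 neutrophil markers edgeR called 5 and 1 higher, DESeq2 5 and 2, and voom 4 and 1. Of 6 endothelium markers edgeR called 2 and 0 higher, DESeq2 3 and 0, and voom 1 and 0. Lower endothelium markers were 1 and 0 by edgeR, 1 and 1 by DESeq2 and 1 and 1 by voom (Tek each time). Of 6 wound-edge keratinocyte markers each tool called 1 and 0 higher (Itga5). Of 6 macrophage markers only DESeq2 called any, 1 and 0 higher (Lyz2). Over all genes the shares lower, for the hair markers too, were 8.44% and 4.02% by edgeR, 13.5% and 8.67% by DESeq2 and 11% and 11.6% by voom. The shares higher were 10.7% and 5.13%, 14.7% and 9.93%, and 12.5% and 12%. The T cell markers summed to only 3.83 to 31.9 CPM per library, and the melanocyte markers to 1.45 to 315 CPM. The mean over 6 markers of wound-edge keratinocytes, the proliferating and migrating epidermis of a wound, was 9.08, 9.61, 10.43, 7.15 and 7.29 in diabetic wound replicates 1 to 5, 9.36, 9.23, 9.55, 9.66 and 10.03 in healthy wounds and 5.6, 8.21, 6.52, 9.26 and 8.51 in normal skin. The part of these tissue differences in the fold changes of the members was not tested.

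**Figure D5:**
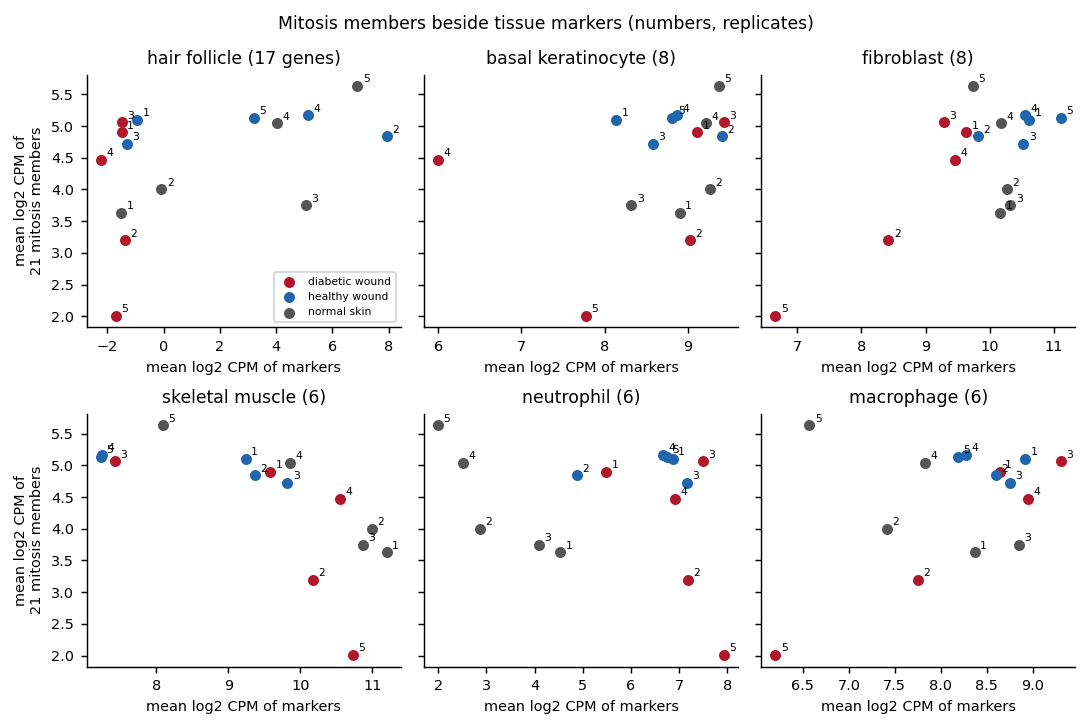
Mean log2 CPM of the 21 mitosis members (y axis) against mean log2 CPM of 6 tissue marker lists (x axes), 1 point per library with its replicate number. Diabetic wound replicate 5 lies at the lowest fibroblast and macrophage levels and at 10.73 on the muscle axis.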

How the data were processed

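Total RNA of frozen mouse skin was isolated with TRIzol, mRNA was picked with poly-T beads and libraries were made with the NEBNext Ultra RNA kit, per the labels' protocols. The kit does not mark the strand. The deposited table holds whole-number read counts per gene, not normalised by the authors, with each model's length, position and symbol in the same table. An aligner, counting program, strand setting or genome build is not given in the sources used here. Positions are those of the table. All 15 columns were matched to samples by the column names that the labels give. Libraries of a group differed from each other by far more than counting noise (chi-square per degree of freedom at least 36.1), so none was treated as a repeat.

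Counts were tested with edgeR 4.0.16 (R 4.3.3): TMM scaling (factors 0.942 to 1.05), filterByExpr, 1 robust quasi-likelihood fit of 3 groups with 12 residual degrees of freedom, and Benjamini-Hochberg adjustment over 17122 genes at 0.05. The SE of a log2 fold change is its size divided by the square root of F. CPM are counts relative to the scaled library total, log2 CPM use a prior count of 2, and FPKM divide CPM by the table's gene length in kilobases. Depth was 15693964 to 17777165 counts, so the spread between libraries, not counting error, limits the precision for most members.

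The members and the other gene lists were chosen with earlier results of these data known. Values in every library were given for 13 fixed members and, in each comparison, for the 3 members with the smallest p among replication, mitosis and the rest. From each further list the 2 genes with the smallest p in each comparison were named. Each choice was varied: scaling (RLE, upper quartile, library size only), no filter and a stricter one, DESeq2 1.42.0, limma 3.58.1 voom with quality weights, fits of 2 groups, the replicate number as a block, each library left out, and diabetic wounds 4 and 5 left out together. For the difference of the sides they were another prior count, another membership and the median over members. On data simulated from these libraries (16811 genes), diabetic wounds against normal skin recovered 13 of 109 genes changed by 1 log2 unit and 53 of 87 changed by 2. The other 16615 genes were left unchanged there. The promoter motifs planned were not analysed, and no sequence is shown.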

Additional observations from a re-analysis of the deposited data

Results flagged for a closer look

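Values of 186 sets of 5 libraries (each member or named gene in each group) were screened for a library set apart from the other 4, and 3 stood apart, where chance gives about 1 in 20. Mcm4 was at 37.0 CPM in diabetic wound replicate 4, against 53.5 to 55.9 CPM in the other diabetic wounds. Tyms was at 16.1 CPM in healthy wound replicate 2, against 20.7 to 21.9 CPM in the other healthy wounds. Kif23, a kinesin of cell division, was at 36.5 CPM in normal skin replicate 5, against 13.2 to 17.7 CPM in the other normal skin libraries.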

How the results depend on the processing

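Of 4418 alternative values of named genes, 4274 had the same call status as in the main fit, which includes genes called in neither. Of the rest, 95 lost a call, 49 gained one and 0 reversed. The number of all genes called moved most. In healthy wounds against normal skin (193) it was 91 without a filter, 124 with a stricter one, 1147 by DESeq2, 1853 by voom, 537 in the fit of 2 groups, 605 without diabetic wounds 4 and 5, and 3 (without healthy wound replicate 5) to 392 (without diabetic wound replicate 5) without 1 library. In diabetic wounds against normal skin (3272) it was 2138 without a filter, 1430 in the fit of 2 groups, 1994 without diabetic wounds 4 and 5, and 2029 (without diabetic wound replicate 5) to 3824 (without diabetic wound replicate 3) without 1 library. In diabetic against healthy wounds (1567) it was 574, 801 and 658 under the same settings, 3174 by DESeq2, 4049 by voom, and 230 (without healthy wound replicate 5) to 2925 (without diabetic wound replicate 3) without 1 library. Members called lower in diabetic wounds against normal skin were 2 by DESeq2 and 0 to 1 without 1 library, and higher 1 to 3. Against healthy wounds members called lower were 1 by DESeq2, 5 by voom and 0 to 2 without 1 library, and higher 1 by voom and 0 to 1. In healthy wounds against normal skin 1 was higher by voom. The cause was not tested. The mean difference of replication and mitosis was 0.67 in diabetic wounds, -0.22 in healthy wounds and 0.01 in normal skin with E2f1, Ccne1 and Ccne2 counted as replication and Ccna2 and Mki67 as mitosis, and 0.51 in healthy wounds as a median over members.

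With the replicate number as a block, 91 genes were called in healthy wounds against normal skin and 173 in diabetic against healthy wounds, and the numbers of members called did not change. The replicate numbers are those of the sample titles, and the diabetic columns of the deposited table carry different numbers. The block also ended the edgeR calls of Ccnd2 (adjusted p = 0.0554), Cdkn1a (0.0766) and Cdkn2c (0.0832) against healthy wounds, and of E2f2 (0.0981), E2f7 (0.0676), Prim2 (0.0753) and Dbf4 (0.0776) in diabetic wounds against normal skin. The labels do not say that a number pairs samples, and not every pair correlated over 0.1: correlations of same-numbered deviations ran from -0.203 to 0.014 in diabetic wounds against normal skin, -0.21 to 0.1 in diabetic against healthy wounds and -0.0539 to 0.238 in healthy wounds against normal skin, where 4 of 5 were over 0.1, and 2 of 15 libraries correlated best with their own number. On simulated data the test called 13 of 109 changes of 1 log2 unit in diabetic wounds against normal skin. There 16615 of 16811 genes were unchanged, whereas 3272 of 17122 genes were called in the data. The adjustment was therefore stricter in the simulation. Changes of the size seen in most members may go uncalled, but how often cannot be read from it.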
